A study of Arabidopsis thaliana with 12 samples.

Results

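Transcripts of 3 nuclear genes for proteins at the acceptor and donor sides of photosystem I were followed in Arabidopsis thaliana with and without plastocyanin: PSAN (AT5G64040), NDHN (AT5G58260) and NDHS (AT4G23890). The genes were chosen by name, and a gene counted where the platform annotation assigned an array feature to it alone. Each of the 3 genes had 1 such feature, numbered 85, 2514 and 77, and none had a further feature shared with other genes. They are 3 of the 691 genes that can be named in this way among 3439 features.

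Wild type (WT) of ecotype Columbia 0 was compared with the pete1 pete2 double mutant in the same ecotype, which lacks both plastocyanin isoforms, and both were grown on MS medium, a mineral medium for plant culture. Total RNA was measured on 1-colour arrays, with 6 columns of values for each genotype. The labels used here give no tissue, plant age or mutant allele, and do not say whether columns came from separate plants, so the spread behind each p-value may be technical only. None of 8 genes for green tissue or 9 for roots had a feature of its own, so the tissue could not be checked.

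Photosystem I takes electrons from plastocyanin on the lumen side of the thylakoid membrane and passes them to ferredoxin in the stroma. PSAN is a small lumenal subunit that helps plastocyanin to react with the photosystem. The chloroplast NADH dehydrogenase-like (NDH) complex returns electrons from ferredoxin to plastoquinone, from where they reach photosystem I again through the cytochrome b6f complex and plastocyanin, and it binds photosystem I in a supercomplex. NDHN is a nuclear-encoded subunit of its stroma-exposed part, and NDHS, also called CRR31, forms the site where ferredoxin docks.

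None of the 3 transcripts passed the test between the genotypes, and after quantile normalisation the confidence intervals of their changes differed widely in width. PSAN was 2.47 ± 0.405 in WT and 2.67 ± 0.363 in pete1 pete2, in relative units of normalised intensity (SD, n = 3). NDHS was 8.27 ± 0.623 in WT and 7.50 ± 0.465 in the mutant. NDHN was 1.001 ± 0.445 and 0.979 ± 0.707, and its values differed by up to 3.30-fold between samples of 1 genotype. The intensity of a feature depends on its own probe, so levels are compared between genotypes and not between genes.

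Deposited intensities summed to 3493 to 3778 relative units per column, and the median of a column was 0.341 to 0.659. Columns were compared with each other after quantile normalisation, by the median absolute difference on the log2 scale over all features. Columns 1 and 2, 3 and 4, and 5 and 6 of a genotype differed by a median of 0.0957 to 0.134. For other columns of the same genotype the median was 0.300 to 0.540. Columns of different genotypes differed by a like amount, 0.308 to 0.507. Each pair of columns 1 and 2, 3 and 4, or 5 and 6 was therefore averaged on the log2 scale and counted once. This leaves 3 values per genotype, and so few arrays limit the precision throughout.

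PSAN, the lumenal subunit, varied little after quantile normalisation. Its normalised intensity in the WT pairs was 2.55 in columns 1 and 2, 2.03 in columns 3 and 4, and 2.83 in columns 5 and 6. In the mutant the same columns gave 2.42, 2.501 and 3.09. The lowest value was a WT pair and the highest a mutant pair, but among the other 4 values both WT pairs lay above both mutant pairs. The genotypes thus overlapped. The 2 columns of a pair differed by at most 1.16-fold.

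The log2 fold change of PSAN, mutant over WT, was 0.12 (SE 0.17), with a limma adjusted p of 1 over all 3438 tested features. Its 95% confidence interval corresponds to between 0.794 and 1.48 times the WT intensity. The exact two-sided permutation test over the 6 pairs gave p = 0.6, where 0.1 is the smallest value that 3 against 3 can give. With each column centred on its median, the log2 fold change was 0.36 (SE 0.42), with a 95% interval from -0.72 to 1.43 on the log2 scale. The direction depended on 1 pair: without WT columns 3 and 4 the log2 fold change was -0.018.

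NDHS, the ferredoxin-docking subunit, was steadier still after normalisation. The WT pairs measured 7.55 in columns 1 and 2, 8.67 in columns 3 and 4, and 8.60 in columns 5 and 6. The mutant pairs measured 7.82, 6.96 and 7.71 in the same order. The 2 highest values were WT and the lowest was mutant, but 2 mutant pairs exceeded WT columns 1 and 2, and the genotypes overlapped.

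The log2 fold change of NDHS was -0.14 (SE 0.10), with a limma adjusted p of 0.989, and the 95% confidence interval reached from 0.756 to 1.09 times WT. The exact permutation test gave p = 0.3. The sign depended on the scaling: the log2 fold change was -0.025 with the values as deposited, -0.0087 with scaling to the total and 0.25 with each column centred on its median. With median centring the 95% interval widened to between -1.01 and 1.499 on the log2 scale. Over all features, the log2 fold change had a median of -0.27 in the deposited values and -0.26 with scaling to the total. Relative to that median, NDHS lay at 0.25 in both, against -0.13 after quantile normalisation. PSAN lay at 0.36 in both, against 0.13, and NDHN at -0.22 in both, against -0.12.

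NDHN, the subunit of the stroma-exposed part, behaved otherwise. In WT it measured 1.21 in columns 1 and 2, 0.490 in columns 3 and 4, and 1.2997 in columns 5 and 6. In the mutant it measured 0.598, 1.79 and 0.544. The 6 pairs thus fell into 3 high values, from 2 WT pairs and 1 mutant pair, and 3 low values, from 1 WT pair and 2 mutant pairs. The columns of a pair agreed to within 1.28-fold, while the highest pair was 2.65 times the lowest in WT and 3.30 times the lowest in the mutant.

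**Figure D1:**
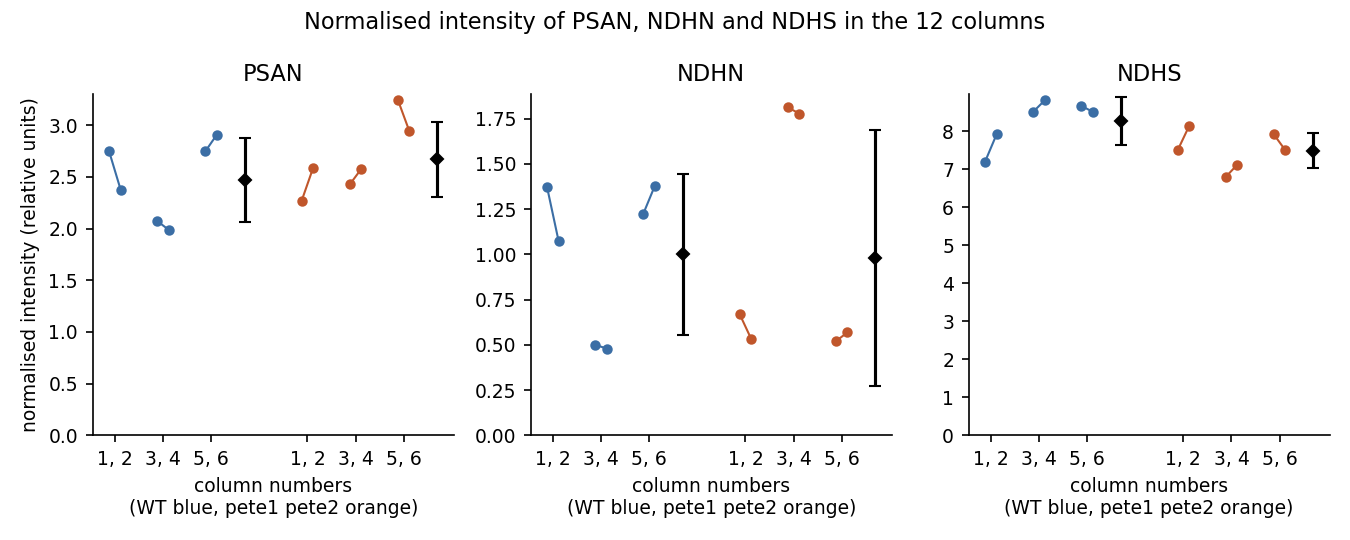
Normalised intensity (relative units, linear axis from 0) of PSAN, NDHN and NDHS in each of the 12 columns, with the columns of a pair joined by a line, and black diamonds with bars for the mean and SD over the 3 pairs of a genotype. The NDHN values split into 3 high and 3 low pairs that cut across the genotypes, whereas the PSAN pairs lie between 2.03 and 3.09 and the NDHS pairs between 6.96 and 8.67.

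The log2 fold change of NDHN was -0.13 (SE 0.64), with a limma adjusted p of 1 and an exact permutation p of 1. The 95% confidence interval ran from 0.289 to 2.87 times WT, so that a marked fall and a marked rise of NDHN are both within what these samples allow. Without any scaling of the deposited values it was -0.49, and with columns scaled to their total -0.47. Leaving out any 1 of 4 pairs turned the sign, with values of 0.067 without WT columns 1 and 2, 0.12 without WT columns 5 and 6, 0.11 without mutant columns 1 and 2, and 0.18 without mutant columns 5 and 6. Without mutant columns 3 and 4, the log2 fold change was -0.69.

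Of the 3 genes, 0 passed an adjusted p of 0.05, as against 1 of 3438 features, or 0.0291%. At an unadjusted p under 0.05 the counts were 0 of 3 genes and 251 features, or 7.3%. Genotypes that did not overlap were found for 0 of the 3 genes and for 341 features, or 9.92%. The absolute log2 fold changes of the 3 genes exceeded those of between 27.8% and 32.8% of the 3326 features that were not at the floor in all pairs. The median absolute log2 fold change of those features was 0.23.

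The size of the NDHN spread was compared with that of features of like brightness, taken as a mean within 0.5 on the log2 scale. The SD between pairs of a genotype was 0.88 for NDHN on the log2 scale, and 820 of 840 such features, or 97.6%, had a smaller one, with a median of 0.34. This share was between 93.2% and 98.5% with the values as deposited, centred on the median, scaled to the total or corrected for neighbouring features. The NDHN spread was therefore wide under each scaling tried. For PSAN the SD was 0.22, and 25.4% of 177 features had a smaller one. That share was 36.8% in the deposited values, 42.7% with scaling to the total, 60% with median centring, where the SD was 0.56, and 61.1% after correction for neighbouring features.

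The SD of NDHS was 0.10, below that of all 36 features of like brightness, whose median was 0.33. That position held only after quantile normalisation. In the deposited values the SD of NDHS was 0.29 and 42.9% of 35 features had a smaller one, with median centring it was 0.65 and 60% did, and after correction for neighbouring features 50% of 36 did. The narrow interval of NDHS thus depended on the scaling, and within the quantile-normalised values also on how the variance was estimated. It ran from -0.40 to 0.12 on the log2 scale in the reported fit. With the dimmest 25% of features left out it ran from -0.63 to 0.35, and with a trended robust variance from -0.53 to 0.24.

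**Figure D2:**
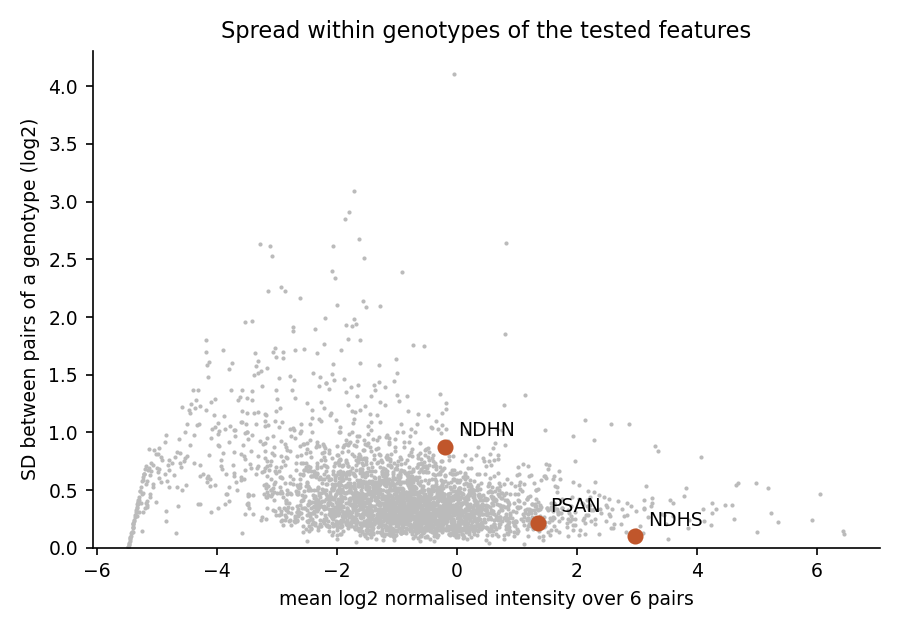
SD between pairs of a genotype (log2, vertical axis) against mean log2 normalised intensity over the 6 pairs (horizontal axis) for the 3326 tested features not at the floor in all pairs, with the 3 genes in orange. NDHN, at 0.88, lies in the upper part of the features of its brightness, and NDHS, at 0.10, at the lower edge.

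The deposited pair means show how the 2 NDH subunits related to the arrays. The mutant pair 3 and 4 had the highest column median, 0.659, together with the highest NDHN, 1.73, and the lowest NDHS, 6.04. The mutant pair 5 and 6 had the lowest column median, 0.342, together with the lowest NDHN, 0.371, and the highest NDHS, 9.60. In WT, NDHN was 1.38 at a column median of 0.625 in columns 1 and 2, 0.469 at 0.487 in columns 3 and 4, and 1.33 at 0.522 in columns 5 and 6. NDHS in WT was 6.77, 9.01 and 8.32 in the same order. In mutant columns 1 and 2, NDHN was 0.483 and NDHS 8.32 at a column median of 0.401. The part of the column median in these values was not tested.

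Quantile normalisation, which gives every column the same distribution, reduced the ratio of the highest to the lowest pair from 4.68 to 3.67 for NDHN and from 1.59 to 1.24 for NDHS. For PSAN this ratio was 1.57 before and 1.52 after. Centring on the median left NDHN at 2.73-fold and widened PSAN to 2.91-fold and NDHS to 3.07-fold. NDHN was thus the widest of the 3 genes in all of these scalings except median centring.

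Features with neighbouring numbers were examined beside the 3 genes. The median log2 deviation of the 10 features before and the 10 after NDHN lay between -0.21 and 0.31 over the 6 pairs, while NDHN itself deviated by -0.84 to 1.04. In mutant columns 3 and 4, where NDHN was at 1.04, its neighbours were at -0.097. With the deviation of the neighbours subtracted, the highest NDHN pair was 4.38 times the lowest, against 3.67 times before. Within WT this ratio fell from 2.65 to 2.16, and within the mutant it rose from 3.30 to 4.38. PSAN and NDHS lie only 8 feature numbers apart and share most of their neighbours, whose median deviation was 0.35 around PSAN and 0.23 around NDHS in WT columns 1 and 2. The same subtraction gave log2 fold changes of 0.18 (SE 0.28) for PSAN and -0.16 (SE 0.27) for NDHS.

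**Figure D3:**
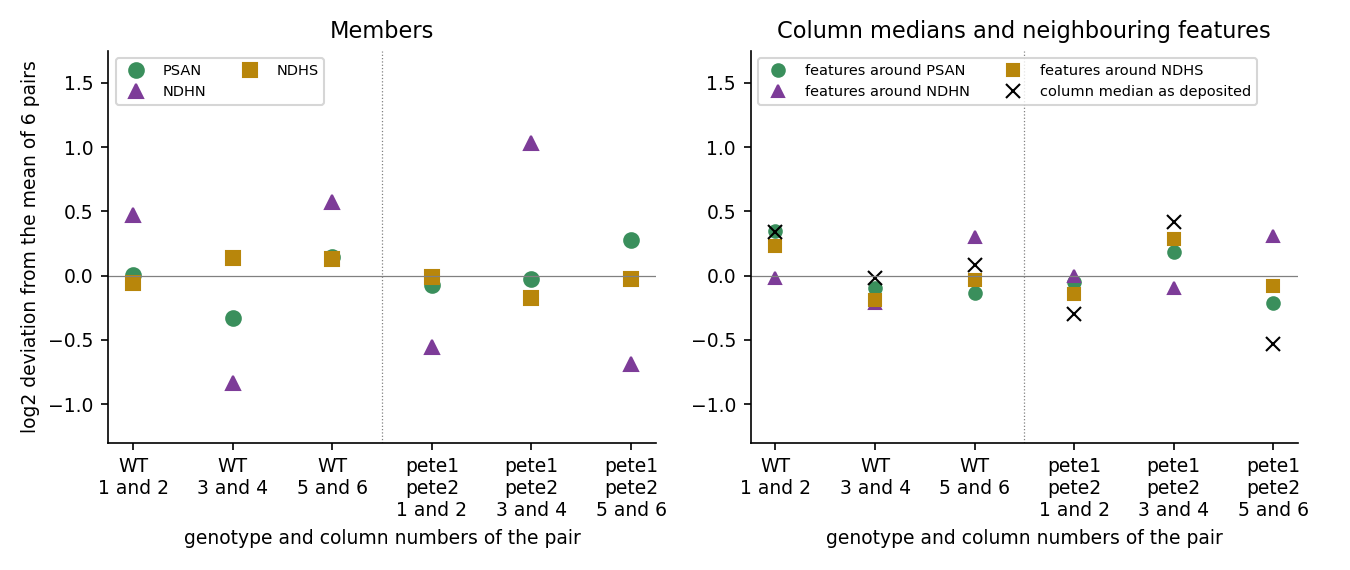
Left, log2 deviation of PSAN, NDHN and NDHS from their own mean over the 6 pairs (vertical axis) in each pair of columns (horizontal axis). Right, on the same scale, the median deviation of the 10 features on each side of each gene and the log2 column median as deposited, centred on its mean. NDHN ranges from -0.84 to 1.04, and its neighbouring features from -0.21 to 0.31.

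The 3 genes did not follow each other over the 6 pairs. Pearson's r between log2 pair values was 0.23 for PSAN with NDHN, -0.24 for PSAN with NDHS and -0.49 for the 2 NDH subunits. These coefficients describe 6 points each, 3 per genotype, that share their arrays and their normalisation.

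Among the 597 other named genes above the floor in all 12 columns, 21 had an r above 0.9 with NDHN, and 3 each with PSAN and NDHS. How often unrelated genes reach such an r over so few pairs was not tested. The gene most like NDHN was AT1G32080 (LrgB, also known as PLGG1), the plastid transporter of glycolate and glycerate in photorespiration, with r = 0.998. It was followed by AT5G06010 with 0.990 and AT4G30150 with 0.984. The highest pair of AT1G32080 was 2.02 times its lowest, a smaller range than that of NDHN. Its feature lies 2316 numbers from that of NDHN, that of AT5G06010 95 and that of AT4G30150 869, so all 3 were outside the neighbours used above.

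The genes most like PSAN were AT5G59060 with r = 0.954, AT5G48830 with 0.933 and AT1G27610 with 0.933. Those most like NDHS were AT2G39100 with 0.924, AT3G32930 with 0.910 and AT1G07040 with 0.908. These 9 genes were ranked on the same 6 pair values, and their log2 fold changes lay between -0.88, that of AT2G39100, and 0.24, that of AT5G59060. None passed limma's test, the smallest adjusted p being 0.899.

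Of 60 nuclear genes in 7 lists for photosystem I, its antenna and assembly, the NDH complex and its assembly, the PGR5 route of cyclic electron flow, and the electron carriers around photosystem I, 4 had a feature of their own. PSAN was the only one of 12 photosystem I subunits, and NDHN and NDHS were the only ones of 18 NDH subunits. The 6 antenna genes, the 5 NDH assembly factors, the 3 genes of the PGR5 route and the 10 carriers had none, and 2 of the carriers appeared only in features assigned to several genes, which were not used. The plastocyanin genes PETE1 and PETE2 are among the carriers without a feature, so they could not serve to check the genotypes.

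The fourth gene was AT1G22700 (PYG7), an assembly factor of photosystem I in the thylakoid membrane, on feature 920. Its normalised intensity was 1.0003 in WT columns 1 and 2, 0.904 in columns 3 and 4, and 0.717 in columns 5 and 6. In the mutant it was 0.798, 0.499 and 0.764. The 2 highest pairs were WT and the lowest was mutant, but the genotypes overlapped.

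The log2 fold change of AT1G22700 was -0.36 (SE 0.24), with a limma adjusted p of 0.989 and a 95% confidence interval of 0.505 to 1.196 times WT. It was -0.57 with the values as deposited (limma unadjusted p = 0.0385, adjusted p = 0.685). With scaling to the total it was -0.55 (limma unadjusted p = 0.0393, adjusted p = 0.658). Both 95% intervals did not include 0, but neither is taken relative to the features as a whole. Their medians in these scalings were -0.27 and -0.26. With each column centred on its median, AT1G22700 was at -0.29, with a 95% interval from -0.98 to 0.40. After quantile normalisation without mutant columns 3 and 4, the log2 fold change of AT1G22700 was -0.15. It stayed negative under all 30 alternatives, some of which could not change its value, and none brought it past the threshold. Over the 4 genes, 0 passed in either direction, 1 log2 fold change was positive and 3 were negative, and the median was -0.14, beside -0.011 for all tested features.

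**Figure D4:**
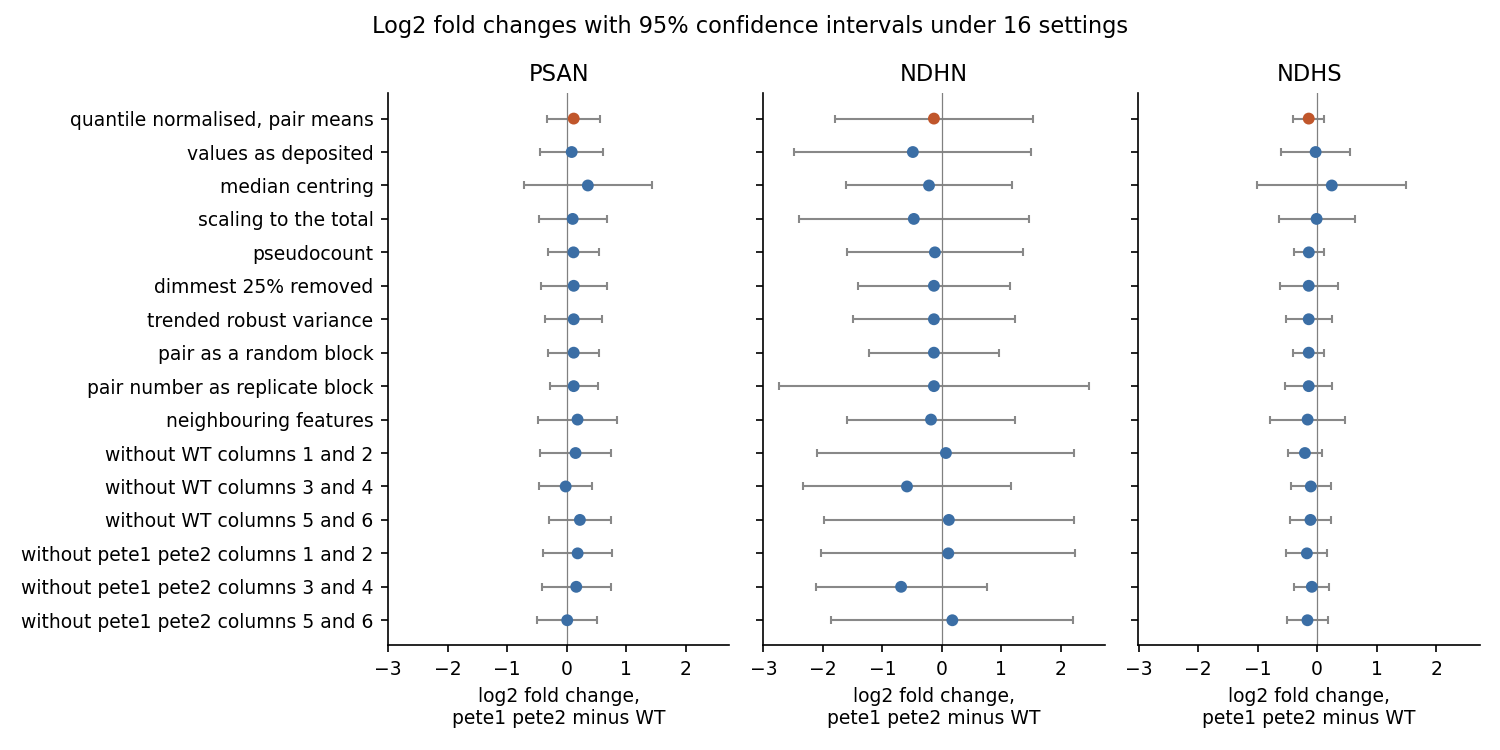
Log2 fold change, pete1 pete2 minus WT, with its 95% confidence interval (horizontal axis, the same in each panel) for PSAN, NDHN and NDHS under 16 settings, with the reported one in orange at the top. Each interval shown includes 0, and that of NDHN is the widest of the 3 genes in each setting, by little with median centring. The 12 columns as separate samples, with or without a replicate block, each feature on its own and the omission of single columns are not drawn, and with the 12 columns as separate samples the interval of NDHS ran from -0.28 to -0.00073.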

How the data were processed

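The deposited values are linear intensities in relative units, with 3439 features in 12 columns and a top value of 100. The labels state neither the scanner nor the background correction, and how the authors scaled the intensities is not given in the sources used here. Columns were grouped by sample title. They were quantile normalised and converted to log2 with a floor of 0.0225, the 1st percentile of the positive intensities. Columns 1 and 2, 3 and 4, and 5 and 6 of a genotype were averaged as duplicates, as were features of 1 gene, leaving 3438 features. Genotypes were compared two-sided by lmFit and eBayes of limma 3.58.1 (R 4.3.3), with a threshold of 0.05 after Benjamini-Hochberg adjustment over all features. The limma fit alone was tried on simulated pair values with independent noise for each feature. Neither the scaling nor effects shared by an array were simulated.

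Of 692 single-gene features, 690 matched the TAIR10.1 gene table, used for names only, since no build is named for the array. The members and lists were chosen with earlier results of these data known. Named were the 3 members, other list genes with a feature of their own, and per member the 3 genes with the highest Pearson's r over the 6 pairs. Alternatives were other scalings, a pseudocount of 0.0872 replacing the floor, the dimmest 25% of features left out, a trended robust variance, the 12 columns as separate samples, random and replicate blocks, subtraction of the median deviation of 10 features on each side, each feature on its own, and leaving out each pair or column.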

Additional observations from a re-analysis of the deposited data

How the results depend on the processing

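Of 90 log2 fold changes of PSAN, NDHN and NDHS under the alternatives, 84 kept their direction, 6 changed sign and 0 passed limma's test. Some of the 84 could not change sign, since the alternative leaves the log2 fold change as it was. These were the fits with the dimmest features left out, a trended robust variance, separate columns, random or replicate blocks, or each feature on its own. The changes of sign were 0.25 for NDHS with median centring, -0.018 for PSAN without WT columns 3 and 4, and, for NDHN, 0.067 without WT columns 1 and 2, 0.12 without WT columns 5 and 6, 0.11 without mutant columns 1 and 2, and 0.18 without mutant columns 5 and 6. With 1 column or pair left out, PSAN ranged from -0.018 to 0.22, NDHN from -0.69 to 0.18 and NDHS from -0.21 to -0.089. The lowest adjusted p of any alternative was 0.551 for PSAN, 0.685 for NDHN and 0.276 for NDHS. The count of features past the threshold, 1 in the reported setting, was 0 with median centring, scaling to the total or no scaling, 3 with the correction for neighbouring features, 19 with the pair as a random block and 224 with the 12 columns as separate samples, and from 0 to 2 with 1 column or pair left out. The random block uses 1 correlation for all features and the separate columns are taken as independent, so p-values of both fits can be too small. In the latter fit NDHS had an unadjusted limma p of 0.049.

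Deviations of the pairs from the mean of their genotype were correlated between genotypes over features. For pairs with the same number, r was 0.32 for columns 1 and 2 and 0.39 for 5 and 6, but 0.00056 for 3 and 4. The deviations within a genotype are tied to its mean, so the coefficients are not independent. Between different numbers, r ran from -0.40, for WT columns 1 and 2 with mutant columns 5 and 6, to 0.16. The latter was for WT columns 1 and 2 with mutant columns 3 and 4. The labels do not state that the numbers pair the genotypes, so the reported fit had no block. Whether they do was not tested. With the pair number as a replicate block, 0 features passed, and 249 did with a replicate block on the 12 columns. Neither block changed a log2 fold change or brought PSAN, NDHN or NDHS past the threshold. The cause of these differences was not tested. Signal over background limits dim features, and the background is not given in the sources used here.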
